A study of Homo sapiens with 4 samples.

Results

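The genes described here are CLCN2, CLCN3, CLCN4, CLCN5, CLCN6 and CLCN7, which encode chloride channels and chloride-proton exchangers of the CLC family, and OSTM1, which encodes the subunit of the CLCN7 exchanger. These 7 genes, of 60308 gene identifiers in the count tables, were matched by GENCODE symbol to their Ensembl numbers. CLCN5 drew attention to the family because its counts were lower after transfection with siZBTB7A. Its ratio of siZBTB7A over siNTC ranked 1 from the lowest among 10119 protein-coding genes that averaged 5 CPM or more (CPM is reads of a gene per 1000000 gene reads). CLCN5 met this cut only through siNTC, at 8.58 CPM there against 3.87 CPM in siZBTB7A, and the rank holds for this cut only. CLCN5 was thus chosen by that ratio and the others as its relatives, so the differences of all 7 genes are given as descriptions with no test.

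RNA-seq was made from VCaP, an established human prostate cancer cell line that expresses ERG from a TMPRSS2 fusion. Cells of the first group received an siRNA against ZBTB7A (siZBTB7A), a zinc finger transcription factor of the BTB family, and cells of the second group received a non-targeting siRNA (siNTC). Both groups grew in DMEM with 10% FBS, so hormones of the serum were present in both. The siRNA sequence, dose and time after transfection are not given in the sources used here, and all the cells are of 1 line. Each group has 2 count tables, numbered as replicates 1 and 2.

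CLC proteins work as pairs of subunits, each with its own path for chloride. CLCN3, CLCN4, CLCN5, CLCN6 and CLCN7 encode exchangers of intracellular membranes, which move chloride into endosomes and lysosomes against protons that the V-ATPase has pumped in. CLCN5 acts in endosomes, above all in the proximal tubule of the kidney, where its loss impairs the uptake of filtered protein and causes Dent disease. CLCN7 and OSTM1 form the exchanger of lysosomes and of the bone-resorbing membrane of osteoclasts, and loss of either causes osteopetrosis. CLCN2 differs from these, since it encodes a chloride channel of the plasma membrane.

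The sequences upstream of CLCN5 and CLCN3 are shown because these are the 2 members whose counting intervals lay below the control. They are the 250 bases before each start listed by RefSeq (GRCh38.p14), written 5′ to 3′ on the strand of the gene, with matches to GACCC or its reverse complement GGGTC in capitals. ZBTB7A binds GC-rich DNA through its zinc fingers. GACCC was searched as the core of the ZBTB7A site, and binding was not measured here.
CLCN5, the first start, chrX:49922346-49922595, plus strand: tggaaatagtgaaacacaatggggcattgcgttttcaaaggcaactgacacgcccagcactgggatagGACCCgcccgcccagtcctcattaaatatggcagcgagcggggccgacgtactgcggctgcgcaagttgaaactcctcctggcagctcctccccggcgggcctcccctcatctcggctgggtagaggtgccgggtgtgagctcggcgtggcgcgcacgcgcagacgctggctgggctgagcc
CLCN5, the second start, chrX:50067338-50067587, plus strand: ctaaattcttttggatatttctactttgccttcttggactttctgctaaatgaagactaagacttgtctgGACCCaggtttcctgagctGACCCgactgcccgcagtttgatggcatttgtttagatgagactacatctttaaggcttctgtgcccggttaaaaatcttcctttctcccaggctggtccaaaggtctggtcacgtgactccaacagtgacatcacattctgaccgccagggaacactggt
CLCN5, the third start, chrX:50069251-50069500, plus strand: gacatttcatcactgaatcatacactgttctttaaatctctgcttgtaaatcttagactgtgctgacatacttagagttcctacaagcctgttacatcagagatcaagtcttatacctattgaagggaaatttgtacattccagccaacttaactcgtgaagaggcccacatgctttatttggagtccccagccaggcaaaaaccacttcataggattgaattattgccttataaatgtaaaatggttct
CLCN3, the first start, chr4:169620328-169620577, plus strand: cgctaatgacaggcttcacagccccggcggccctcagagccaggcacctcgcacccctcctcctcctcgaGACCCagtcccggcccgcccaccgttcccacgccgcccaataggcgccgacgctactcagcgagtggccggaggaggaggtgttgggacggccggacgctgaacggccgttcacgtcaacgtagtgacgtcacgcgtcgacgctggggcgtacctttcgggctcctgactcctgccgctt
CLCN3, the second start, chr4:169659990-169660239, plus strand: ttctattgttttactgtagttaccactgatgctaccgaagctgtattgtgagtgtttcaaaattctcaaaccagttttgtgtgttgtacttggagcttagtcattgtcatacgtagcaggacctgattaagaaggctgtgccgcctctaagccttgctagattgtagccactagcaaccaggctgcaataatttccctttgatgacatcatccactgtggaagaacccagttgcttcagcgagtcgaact

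In CLCN5 the first window held 1 match, beginning 182 bases before the start, and the second held 2 matches, at 180 and 161 bases. The third CLCN5 window held none (0 matches). The first CLCN3 window held 1 match, at 180 bases, and the second 0. Among the other members, CLCN2 and CLCN7 had 3 matches each, OSTM1 had 1, and CLCN4 and CLCN6 had 0. The motif is common, with a match in 42.1% of 35116 such windows of all genes, and a match is not evidence of binding. The gene counts do not separate transcripts from the different starts of CLCN5 or CLCN3. The GC content of the CLCN5 windows was 64.0%, 46.4% and 38.0%, so the first start lies in GC-rich sequence and the other two do not.

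CLCN5 is also the host of a cluster of microRNA genes on the same strand of the X chromosome. GENCODE 29 places 8 of them within its span, namely MIR532, MIR188, MIR500A, MIR362, MIR501, MIR500B, MIR660 and MIR502. RefSeq gives 15 mature sequences for these genes, with 13 different seeds (bases 2 to 8). Some seeds overlap only in part, such as UGCACCU of hsa-miR-500a-3p and AUGCACC of hsa-miR-501-3p. The pairs with an identical seed, which would recognise the same target sites, are shown with the seed in capitals.
hsa-miR-362-5p: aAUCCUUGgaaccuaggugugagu
hsa-miR-500b-5p: aAUCCUUGcuaccugggu
hsa-miR-501-3p: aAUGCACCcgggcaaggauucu
hsa-miR-502-3p: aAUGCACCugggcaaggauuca
All 8 genes together had 1 read in the siZBTB7A tables and 1 read in the siNTC tables, so no level of the microRNAs could be read from these libraries.

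The libraries were of similar depth and behaved alike within a group. Reads counted in genes numbered 5556061 and 5745862 in the siZBTB7A tables, and 5737738 and 5927656 in the siNTC tables. The 2 tables of a group differed by no more than read sampling, with a chi-square per degree of freedom of 0.995 in siZBTB7A (p = 0.659) and 0.993 in siNTC (p = 0.722). Between tables of different groups it was 3.50 to 3.64. The 2 tables of a group were therefore counted as 1 sample, which leaves no replicate check of any difference. The labels do not say whether they are separate cultures. The edgeR test and its adjusted p-values below take the spread between these tables as the error, so they compare 2 libraries and not 2 conditions. Reads at no annotated exon differed between the groups, at 23.1% and 23.2% of all reads in siZBTB7A and 20.6% and 20.6% in siNTC, and their part in the results was not tested. Luminal prostate markers were present in every table, with 4004.7 and 4041.5 CPM of KLK2 in siZBTB7A and 3940.5 and 3921.2 CPM in siNTC. The 6 leukocyte, endothelial and fibroblast markers read here together had 11 and 13 reads in siZBTB7A and 10 and 10 reads in siNTC, and CD3E was at 0 in every table.

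ZBTB7A, the targeted gene, had 70 and 74 reads in the siZBTB7A tables and 90 and 115 reads in the siNTC tables. Its ratio was 0.743 (95% counting interval 0.596 to 0.924), and it did not pass edgeR's quasi-likelihood test (Benjamini-Hochberg adjusted p = 0.0969). The label siZBTB7A therefore stands below for a library in which the knockdown was not established by the counts.

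CLCN5, the endosomal exchanger of Dent disease, had the fewest reads of the family. It was counted with 20 and 23 reads in the siZBTB7A tables, against 54 and 47 reads in the siNTC tables. Scaled to the library, these were 3.66 and 4.07 CPM in siZBTB7A and 9.33 and 7.86 CPM in siNTC. Both siZBTB7A tables lay below both siNTC tables, and the groups did not overlap. Such complete separation in the lower direction was seen in 23.4% of the 12848 genes tested. The summed tables gave 43 reads in siZBTB7A and 101 in siNTC, a ratio of 0.451 (95% counting interval 0.308 to 0.650). This interval covers counting error only. In bulk RNA, fewer cells with the transcript and less transcript per cell cannot be told apart.

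CLCN3, the most abundant member, encodes an endosomal exchanger that can pair with the CLCN4 protein. It had 1276 and 1333 reads in the siZBTB7A tables, against 1532 and 1534 reads in the siNTC tables, or 233.4 and 235.9 CPM against 264.8 and 256.5 CPM. The groups did not overlap here either, but the gap was small relative to the level. The ratio was 0.901 (0.854 to 0.949). A processed copy, CLCN3P1, had 1 read in each group, and reads that map equally well to both are left out of such counts.

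CLCN4 encodes the third endosomal exchanger of this branch. It had 131 and 152 reads in the siZBTB7A tables and 143 and 141 reads in the siNTC tables. The tables of the groups overlapped, at 24.0 and 26.9 CPM in siZBTB7A and 24.7 and 23.6 CPM in siNTC. Its ratio was 1.05 (0.891 to 1.25), an interval that included no difference.

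CLCN6 encodes an exchanger of late endosomes that is best known from neurons. It had 77 and 80 reads in siZBTB7A and 75 and 89 reads in siNTC, with a ratio of 1.01 (0.809 to 1.27). The groups overlapped. The opposite-strand column of CLCN6 itself held 0 reads in siZBTB7A and 1 read in siNTC.

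CLCN7 and OSTM1 are the lysosomal pair, and their levels per length are compared below. CLCN7 had 126 and 144 reads in siZBTB7A and 148 and 142 reads in siNTC, with a ratio of 0.985 (0.832 to 1.17) and overlapping tables. OSTM1 had 102 and 110 reads in siZBTB7A and 133 and 120 reads in siNTC, or 18.7 and 19.5 CPM against 23.0 and 20.1 CPM. The OSTM1 tables did not overlap, but its counting interval included no difference, at a ratio of 0.887 (0.735 to 1.07).

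CLCN2, the plasma membrane channel, lay on the other side. It had 90 and 104 reads in siZBTB7A and 83 and 86 reads in siNTC, or 16.5 and 18.4 CPM against 14.3 and 14.4 CPM. Both siZBTB7A tables lay above both siNTC tables, which was so in 23.5% of all genes tested. The ratio was 1.21, with an interval of 0.983 to 1.50 that included no difference.

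**Figure D1:**
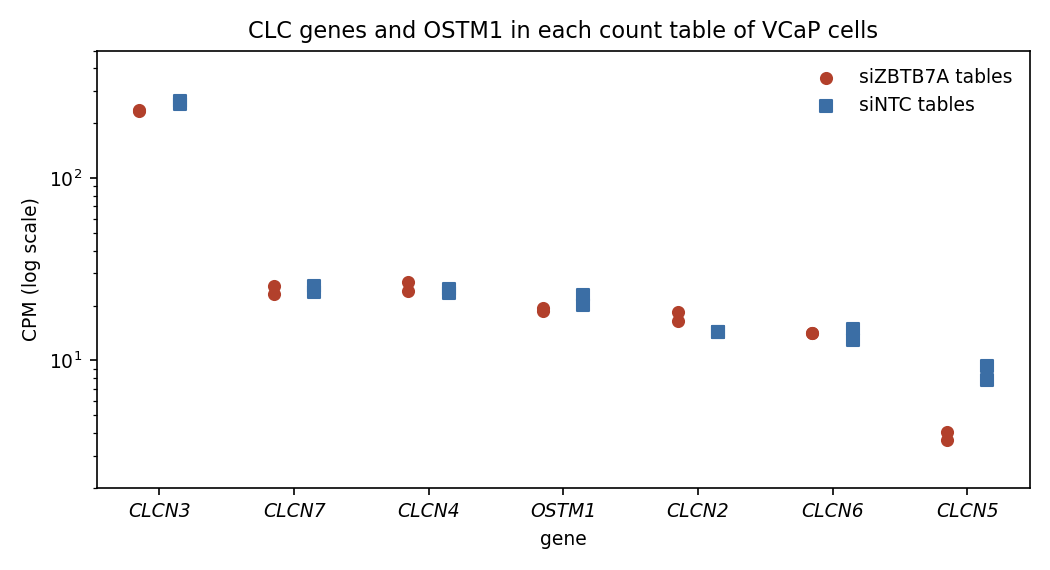
CPM (log scale) of the 7 genes in each count table, with the 2 siZBTB7A tables as circles left of the 2 siNTC tables as squares. CLCN5 sits at 3.66 and 4.07 CPM in siZBTB7A and at 9.33 and 7.86 CPM in siNTC, while the tables of CLCN4, CLCN6 and CLCN7 overlap.

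Over the family, 4 ratios were below 1 and 3 were above 1, with a median log2 ratio of -0.02 against 0.00084 over all genes tested. The counting interval lay below 1 for 2 genes, CLCN5 and CLCN3, and included 1 for the other 5. Nothing is read from this count, because CLCN5 was chosen by this difference and the share over all genes tested is not given here. The interval of CLCN3 covers counting error only and is narrow because of its many reads, 2609 in siZBTB7A and 3066 in siNTC. All 7 members passed the filter on low counts.

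**Figure D2:**
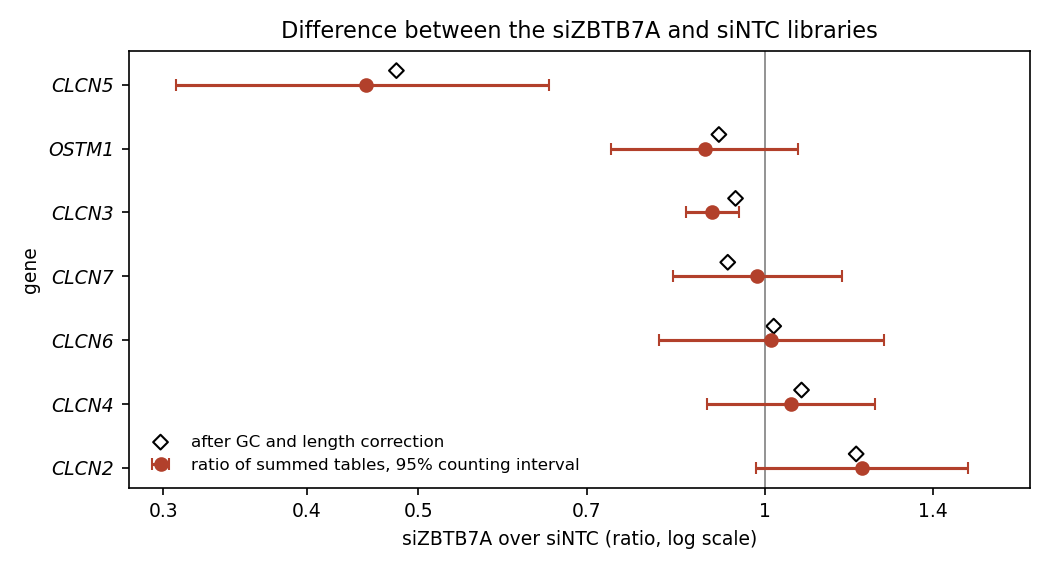
Ratio of siZBTB7A over siNTC (log scale) for each gene, from the summed tables, with bars for the 95% counting interval and open diamonds for the ratio after correction for GC content and length. CLCN5, which was chosen by this ratio, is at 0.451 (0.478 corrected), and the other 6 genes lie between 0.887 and 1.21.

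The members differed in transcript composition and length. The GC content of the longest transcript was 43.2% in CLCN5 and 40.3% in CLCN3, against 64.9% in CLCN7 and 56.9% in CLCN2, with a median of 48.0% over tested protein-coding genes. CLCN5 also had the longest transcript of the 7 genes, at 10108 bases, where the median gene had 3804 bases. Genes with the GC content and length of CLCN5 had a fitted log2 ratio of -0.09 in these libraries, and those like CLCN7 had one of 0.09. Correcting the ratios for both properties left CLCN5 at 0.478 and brought CLCN3 from 0.901 to 0.943, which is still within its counting interval. CLCN2 was at 1.20 and OSTM1 at 0.912 after the correction. CLCN7 was at 0.929 after it, farther from 1 than before.

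Among protein-coding genes that averaged 5 CPM or more, the 5 whose log2 ratio was nearest to that of CLCN5 were IGIP, PRKCE, RHOBTB1, MSTO1 and NPRL3. Because CLCN5 ranked lowest, these are the genes next above it, and they were not matched to it on abundance. Likeness here is the absolute difference of log2 ratios over the 2 groups, and it was 0.12 for IGIP and 0.34 to 0.38 for the other four. IGIP had 26 and 28 reads in siZBTB7A and 55 and 62 reads in siNTC. PRKCE, which encodes a protein kinase C isoform, had 40 and 45 reads in siZBTB7A and 81 and 77 reads in siNTC. Like CLCN5, these 5 genes had few reads, from 47 to 85 in siZBTB7A and from 87 to 158 in siNTC. IGIP, RHOBTB1 and MSTO1 were below 5 CPM in siZBTB7A, at 4.86, 4.23 and 4.41 CPM, and met the cut only through siNTC. The other members of the CLC family lay far from this end of the range, with CLCN3 at rank 1579 and OSTM1 at rank 1266 from the lowest of 10119. CLCN2 was near the other end, at rank 9525.

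**Figure D3:**
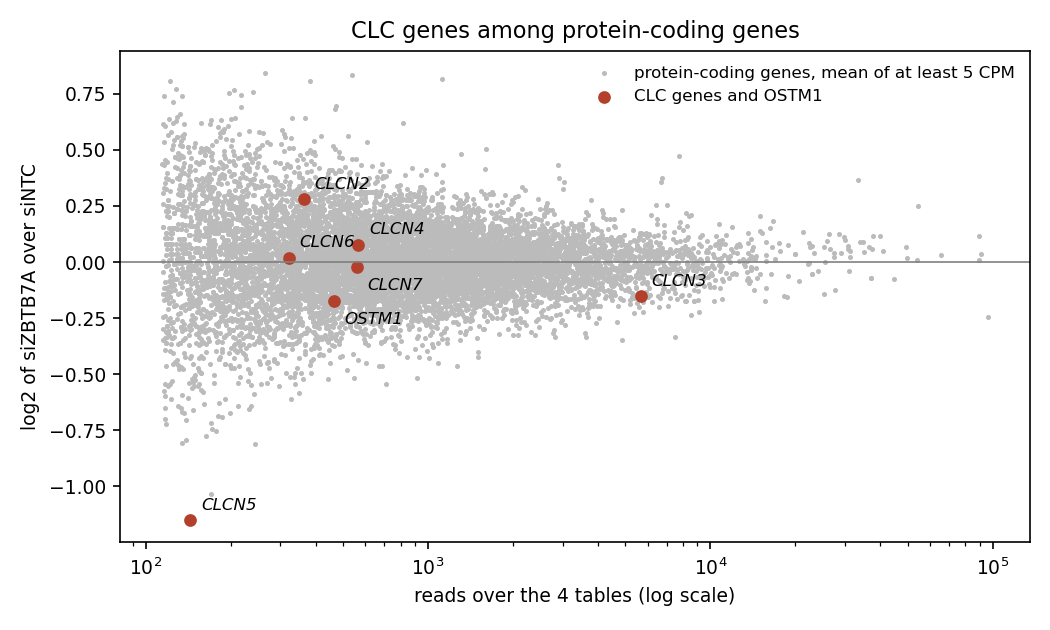
Log2 of siZBTB7A over siNTC against reads over the 4 tables (log scale) for protein-coding genes that averaged 5 CPM or more (grey), with the 7 CLC family members in red. CLCN5 is the lowest point, at a log2 ratio of -1.15, in the region of few reads where the ratios scatter most.

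Levels were compared between genes per length, as CPM per kilobase of annotated exon (RPKM). CLCN3 led by a wide margin, at 28.9 RPKM in siZBTB7A and 32.1 RPKM in siNTC. It stood above 91.0% and 92.2% of tested protein-coding genes in these libraries. OSTM1, at 3.58 and 4.04 RPKM, CLCN4, at 3.75 and 3.56 RPKM, and CLCN7, at 2.99 and 3.04 RPKM, came next. In siZBTB7A the counting intervals of these 3 overlapped, and they could not be put in order. In siNTC the interval of OSTM1 (3.56 to 4.57 RPKM) lay above that of CLCN7 (2.70 to 3.41 RPKM) and overlapped that of CLCN4. That order depends on the length used, since CLCN7 stood above OSTM1 and CLCN4 over all tables with the longest transcript as length. CLCN2, at 2.05 RPKM in siZBTB7A and 1.69 RPKM in siNTC, and CLCN6, at 1.73 and 1.71 RPKM, overlapped each other in both libraries. Annotated exon was 8523 bases in CLCN2 and 8174 in CLCN6, but their longest transcripts had 4615 and 5631 bases. Whether their intervals overlap in siZBTB7A therefore also depends on the length used. CLCN5 was the lowest, at 0.338 RPKM in siZBTB7A (0.245 to 0.455) and 0.750 RPKM in siNTC (0.611 to 0.912), below the interval of every other member. It stood above 2.60% of tested protein-coding genes in siZBTB7A and above 9.12% in siNTC.

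**Figure D4:**
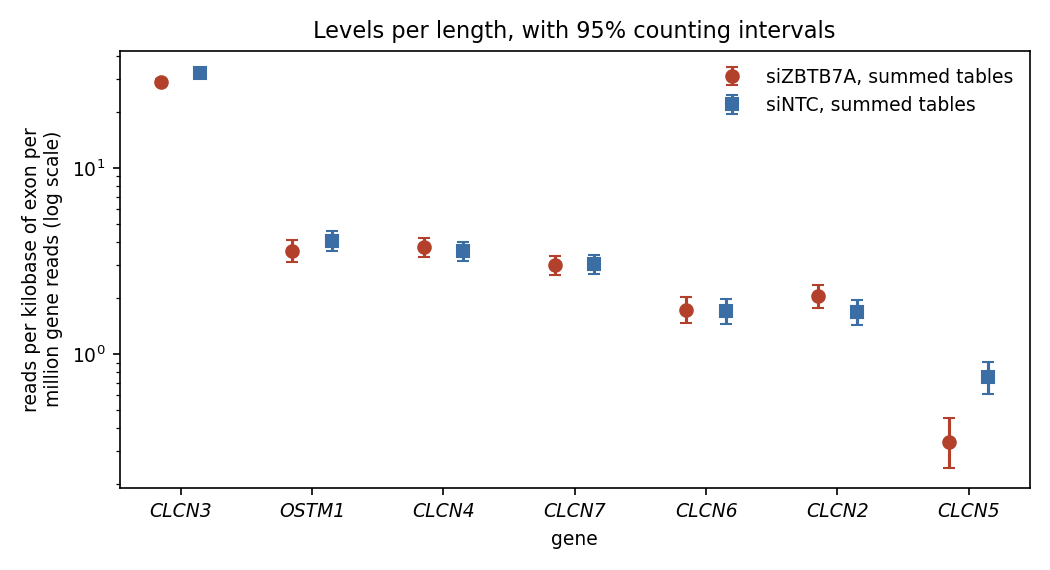
RPKM (log scale) of the 7 genes in the siZBTB7A library (circles, left) and the siNTC library (squares, right), with 95% counting intervals. CLCN3, at 28.9 and 32.1 RPKM, is far above the others, and CLCN5 is the lowest in both libraries.

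Because CLCN3 was so abundant, CLCN5 contributed little to the endosomal exchanger transcripts as a group. CLCN3, CLCN4 and CLCN5 together had 33.0 RPKM in siZBTB7A and 36.4 RPKM in siNTC, a ratio of 0.906. CLCN3 made up 87.6% of this sum in siZBTB7A and 88.2% in siNTC. The share of CLCN5 was 1.03% in siZBTB7A and 2.06% in siNTC. The larger part of the difference in the sum therefore came from CLCN3.

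Reads on the strand of each gene dominated at every member locus. Over the 7 genes, siZBTB7A had 3768 reads on the strand counted and 18 on the other, and siNTC had 4327 and 19, so 99.5% and 99.6% were on the strand counted. CLCN5 had 1 opposite-strand read in each group. In CLCN7 the unstranded count was smaller than the stranded one, at 187 against 270 reads in siZBTB7A and 201 against 290 reads in siNTC. GENCODE 29 lists a pair of antisense genes within CLCN7, and reads that overlap more than 1 gene are left out when strand is ignored. Both antisense genes had 0 reads on their own strand in each group, and their part in the smaller count was not tested. FAM131A, which overlaps CLCN2 on the opposite strand, had 139 reads in siZBTB7A and 176 in siNTC, with a ratio of 0.836 (0.664 to 1.05). This interval and that of CLCN2 both include 1, so no direction is read from either gene.

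The protein-coding neighbours of CLCN5 were nearly silent. Of the 3 nearest genes on each side, USP27X, a deubiquitinase gene, had 7 and 0 reads in the siZBTB7A tables and 5 and 8 reads in the siNTC tables. The other five, PAGE1, PAGE4, AKAP4, CCNB3 and DGKK, had at most 3 reads in a group. None of the 6 could be tested (0 passed the filter on low counts), so whether the region differs beyond CLCN5 was not detectable at this depth.

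The remaining CLC genes and the accessory subunits had few reads or ratios near 1. CLCN1, the channel of skeletal muscle, had 6 reads in siZBTB7A and 5 in siNTC. TMEM9 and TMEM9B, which encode partners of the endosomal exchangers, were the only tested genes of this list of 7. TMEM9 was at 0.969 of the control (0.900 to 1.04), with 31.6 RPKM in siZBTB7A and 32.6 RPKM in siNTC, and TMEM9B at 1.02 (0.854 to 1.23). Neither passed edgeR's test (adjusted p = 0.726 and 0.931).

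The V-ATPase, whose proton pumping the exchangers accompany, had 0 of 19 tested subunit genes called by edgeR in either direction, where the background over all genes was 4.97%. At an unadjusted p under 0.05 edgeR had 6 of the 19 (31.6%), against 17.9% of all genes tested, and DESeq2 called 0. Its median log2 ratio was 0.02. The most abundant subunit gene, ATP6V1G1, stood at 1.07 (1.01 to 1.14), with 155.3 RPKM in siZBTB7A and 144.9 RPKM in siNTC. ATP6V1F followed at 1.12 (1.01 to 1.25), ATP6V0B at 1.04 (0.974 to 1.12) and ATP6V0E1 at 1.09 (0.972 to 1.22).

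Cation channels and proton exchangers of the same compartments also had 0 of 11 tested genes called by edgeR (0 at an unadjusted p under 0.05, and 0 by DESeq2), with a median log2 ratio of 0.01. SLC9A7, a sodium- and potassium-proton exchanger gene of the trans-Golgi network, led in level and stood at 0.933 (0.866 to 1.004). P2RX4 was at 1.10 (0.937 to 1.29), TMEM175, a lysosomal potassium channel gene, at 1.02 (0.784 to 1.32), and TPCN2 at 0.900 (0.757 to 1.07). Among chloride channel genes of other families, 0 of 15 were called by edgeR (0 at an unadjusted p under 0.05, and 0 by DESeq2), with a median log2 ratio of 0.02. CLIC1 was at 0.995 (0.931 to 1.06), CLNS1A at 0.998 (0.926 to 1.08), CLIC4 at 0.937 (0.831 to 1.06) and LRRC8A, which encodes the core subunit of the volume-regulated anion channel, at 1.05 (0.920 to 1.21).

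Among chloride cotransporters and anion exchangers, 1 of 14 tested genes was called higher and 1 lower by edgeR, with a median log2 ratio of 0.0029. Of all 12848 genes tested, 2.25% were called higher and 2.72% lower. In this list 3 genes had an unadjusted p under 0.05 (21.4%), and DESeq2 called 0. SLC26A6, an exchanger of chloride, oxalate and bicarbonate, had 521 reads in siZBTB7A and 445 in siNTC and was higher at 1.24 (1.09 to 1.41, edgeR adjusted p = 0.0286). SLC26A2, the sulfate transporter of cartilage, had 562 and 720 reads and was lower at 0.826 (0.738 to 0.924, edgeR adjusted p = 0.0256). SLC4A2, SLC4A7, SLC12A2 and SLC12A7 led in level, and none of these 4 passed, with ratios of 0.979, 0.979, 1.03 and 1.13.

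Of 22 tested genes of endocytosis and early endosomes, 1 was called higher and 1 lower, with a median log2 ratio of -0.02. At an unadjusted p under 0.05 there were 4 (18.2%), and DESeq2 called 1. CLTC, the clathrin heavy chain gene, had 8557 reads in siZBTB7A and 10094 in siNTC and was lower at 0.897 (0.872 to 0.923, edgeR adjusted p = 1.58e-08). AP2M1, a subunit gene of the clathrin adaptor at the plasma membrane, had 1958 and 1843 reads and was higher at 1.12 (1.05 to 1.20, edgeR adjusted p = 0.0116). RAB11A, of recycling endosomes, was at 0.972 (0.927 to 1.02) and RAB7A, of late endosomes, at 1.05 (0.944 to 1.16).

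Of 30 tested lysosomal genes, 2 were called higher and 0 lower by edgeR, with a median log2 ratio of 0.04. At an unadjusted p under 0.05 there were 6 of the 30, and DESeq2 called 0. TFE3, a transcription factor gene of lysosome biogenesis, had 190 reads in siZBTB7A and 137 in siNTC and was higher at 1.47 (1.17 to 1.84, edgeR adjusted p = 0.0242). GRN, which encodes progranulin, had 681 and 600 reads and was higher at 1.20 (1.07 to 1.34, edgeR adjusted p = 0.0340). DNAJC5, CTSD, SCARB2 and GLB1 led in level and did not pass, at 0.914, 1.03, 0.961 and 1.10. Over the 7 lists, 6 of 113 tested genes were called, or 5.31%, close to the 4.97% of all genes. Of the 6, CLTC alone was also called by DESeq2 and in all 4 fits that left out a table, while the other five lost the call in at least 2 of those 4 fits. The 4 higher ones had a GC content of 56.4% to 61.8% and the 2 lower ones of 39.7% and 42.0%, and the part of GC content in these calls was not tested. After the correction for GC content and length the ratios were 1.42 for TFE3, 1.23 for SLC26A6, 1.14 for GRN, 1.09 for AP2M1, 0.948 for CLTC and 0.876 for SLC26A2. The corrected ratio of CLTC is closer to the control than its whole counting interval of 0.872 to 0.923.

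**Figure D5:**
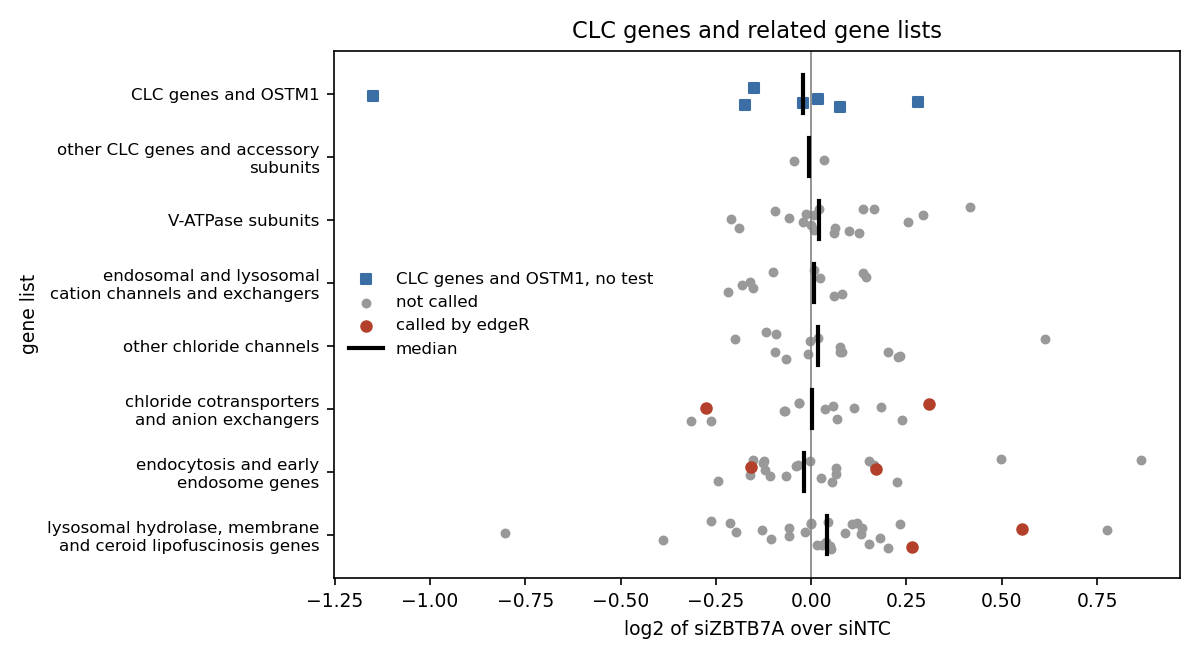
Log2 of siZBTB7A over siNTC for each tested gene of the CLC family (squares, no test) and of 7 related gene lists (circles, red where called by edgeR), with a bar at each median. The median of each list lies between -0.02 and 0.04. CLCN5, at -1.15, was chosen by this ratio, so its place outside the range of every list is not a test.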

How the data were processed

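RNA-seq gene counts of VCaP cells were used as the authors deposited them, as whole-number read counts per gene with no normalization. Per the submitters' processing notes, STAR 2.4.2a and the builds hg19 and GRCh37 were used, while the release of their annotation is not stated there. Per the labels' protocols, the kit was a stranded total RNA kit, so the counts of the fourth column were taken, which exceeded those of the opposite strand by 24.9 to 25.5 times. Rows that name no gene held 51.2% and 51.2% of reads in siZBTB7A and 50.9% and 50.8% in siNTC, and were left out. Of 60308 identifiers, 55698 were named with GENCODE 29, which is on another build and gave names, exon lengths and GC content. The unnamed ones held 2.03% and 2.01% of gene reads in siZBTB7A and 2.28% and 2.27% in siNTC.

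The test was edgeR 4.0.16 in R 4.3.3 (quasi-likelihood, robust, TMM factors, filterByExpr, no term besides group, Benjamini-Hochberg adjusted p under 0.05 over 12848 genes). Where nothing says that tables came from separate cultures, p-values measure only their spread, which may be technical. Ratios come from summed tables scaled by totals after TMM, with 95% intervals by the exact Clopper-Pearson method, and levels have exact Poisson intervals. The GC and length correction, a spline with 4 degrees of freedom for each property, was added after the data were seen. Alternatives were DESeq2 1.42.0, its size factors, other filters, unstranded counts, the replicate block and leaving out each table.

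The members and the 7 lists (151 genes, all matched, PACC1 by its Ensembl number) were chosen with earlier results of these data known. The genes named were all members, ZBTB7A, every called list gene, the 4 of each list with the highest level, genes overlapping a member, the 3 nearest coding genes on each side of CLCN5 and the 5 with the nearest ratio. Promoter and microRNA sequences are from RefSeq (GRCh38.p14), found for all 7 members and all 8 hosted microRNA genes. Some genes that these rules name are not reported here. Other computations used Python 3.11.15, scipy 1.17.1 and pandas 2.3.3.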

Additional observations from a re-analysis of the deposited data

How the results depend on the processing

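The ratio of CLCN5 kept its direction and stayed within its counting interval in all 9 alternatives, with a log2 ratio of -1.27 to -1.03 against -1.15. These alternatives reuse the same reads, and CLCN5 was chosen by this ratio, so they show only how far processing moves it. Leaving out a table gave -1.27 to -1.03, and the replicate block gave -1.15. CLCN3 and OSTM1 stayed below the control in 9 of 9 alternatives, at -0.17 to -0.08 and -0.27 to -0.08, and CLCN2 above it in 9 of 9, at 0.20 to 0.36. The groups did not overlap for CLCN5 or any of these genes, so leaving out a table could hardly change the sign. CLCN4 kept its sign in 8 of 9, CLCN6 in 8 of 9 and CLCN7 in 7 of 9, all within their counting intervals. CLCN5 was the lowest member, at rank 7, also with the longest transcript as length and with unstranded counts. The order of OSTM1, CLCN4 and CLCN7 changed with the length used, and CLCN7 came first of these with the longest transcript.

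The count of 639 genes called over all genes stayed within 1.5 times with DESeq2 size factors (650), unstranded counts (647), a minimum mean of 1 CPM (650), no low-count filter (502) and the replicate block (654). By DESeq2 the count was 89, split into 42 higher and 47 lower, and 87 of these belong to the 639. Its adjusted p was NA for 8967 genes, including 195 of the 639, and the cause of the lower count was not tested. Leaving out a table left fewer reads in a group and called 303 to 373. Over the 7 lists, 6 genes were called in each of those 5 alternatives, 1 with DESeq2, and 2 to 4 when a table was left out. CLTC was called in 4 of 4 such fits, AP2M1 and TFE3 in 2, GRN and SLC26A2 in 1 and SLC26A6 in 0. Between tables with the same number, deviations from the group had a correlation of -0.02 (7017 genes). The tables of a group differed by no more than read sampling, so this value cannot show whether equal numbers mark a pairing. Depth limits CLCN5 most, with 43 and 101 reads.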
